A study of Mus musculus with 48 samples.

Results

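Alpha-defensins are the signature peptides of Paneth cells, and 10 of their genes in mouse were followed here in duodenum and ileum from birth to week 4. The 10 genes, Defa17, Defa21, Defa22, Defa24, Defa26, Defa29, Defa30, Defa33, Defa36 and Defa41, were taken by symbol from 54532 genes in the deposited table, which holds 45 Defa symbols in all. The list was chosen by level, on large differences between day 0 and week 4 in these same samples, so that contrast is described here with no test. The samples were 2 cm pieces of whole intestinal wall from C57BL/6J mice of both sexes, duodenum from just beyond the stomach outlet and ileum from just before the caecum. Mice of 8 ages were used, day 0, 2, 4, 6 and 8 and week 2, 3 and 4, with 3 samples for each region and age and usually 2 or 3 ages from a litter. All were kept with the dam to day 21 and ate chow thereafter, in housing that the labels call standard germ-free, and no group carried a mutation or treatment. Whether duodenum and ileum samples of one age and number came from one mouse is not stated, so the p-values measure the spread between these samples.

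Paneth cells sit at the base of small intestinal crypts and release granules of antimicrobial protein into the crypt. An alpha-defensin is made as a precursor with a signal peptide and an acidic propiece, and in mouse the metalloprotease Mmp7 (matrilysin) cuts out the mature peptide, a small cationic molecule held by disulfide bonds that disrupts bacterial membranes. In mice, crypts and Paneth cells form after birth, during suckling and weaning. In bulk tissue, fewer Paneth cells and less RNA per cell cannot be told apart.

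All 10 genes lie on the plus or minus strand of mouse chromosome 8 and have 2 exons in GENCODE release M21 (build GRCm38, the same as mm10). Their coding sequences fell into groups of at least 88% identity. Defa17, Defa24, Defa26 and Defa30 were 89.2% to 98.6% identical to one another, Defa21, Defa22 and Defa33 were 88.8% to 99.3% identical, and Defa36 and Defa41 were 97.5% identical. Defa29 stood apart, at 61.5% to 65.3% identity with the other 9. Its coding sequence is 348 bases long, against 279 for Defa24. It is counted with the family here by its symbol. The coding end of the second exon, which carries the mature peptide, is printed for 8 genes because the levels described next follow these groups in part and cut across them in part. Capitals mark bases that differ from the most common base at that place among the 9 genes that align (Defa29 does not).
Defa24: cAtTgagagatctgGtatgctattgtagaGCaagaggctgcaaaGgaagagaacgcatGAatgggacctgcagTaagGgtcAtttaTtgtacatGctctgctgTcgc
Defa30: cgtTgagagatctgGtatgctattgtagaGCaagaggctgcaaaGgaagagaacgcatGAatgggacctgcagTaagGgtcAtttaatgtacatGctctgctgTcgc
Defa17: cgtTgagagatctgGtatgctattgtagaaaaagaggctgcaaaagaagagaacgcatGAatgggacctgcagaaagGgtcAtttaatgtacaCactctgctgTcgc
Defa36: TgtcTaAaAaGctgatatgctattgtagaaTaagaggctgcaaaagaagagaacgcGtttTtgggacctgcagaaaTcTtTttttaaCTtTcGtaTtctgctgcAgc
Defa41: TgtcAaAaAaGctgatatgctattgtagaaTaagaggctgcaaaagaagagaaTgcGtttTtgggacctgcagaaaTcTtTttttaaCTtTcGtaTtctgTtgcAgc
Defa21: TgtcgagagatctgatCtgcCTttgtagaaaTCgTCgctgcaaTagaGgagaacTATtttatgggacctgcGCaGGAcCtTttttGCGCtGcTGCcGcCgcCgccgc
Defa22: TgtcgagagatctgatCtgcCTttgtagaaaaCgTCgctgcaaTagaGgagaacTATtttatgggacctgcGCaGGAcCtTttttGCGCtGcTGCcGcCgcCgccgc
Defa33: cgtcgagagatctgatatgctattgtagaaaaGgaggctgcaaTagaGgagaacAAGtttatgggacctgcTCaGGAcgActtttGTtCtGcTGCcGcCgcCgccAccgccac
These stretches lie at chr8:21735268-21735374 (Defa24), chr8:21135394-21135500 (Defa30), chr8:21656532-21656638 (Defa17), chr8:21428189-21428295 (Defa36), chr8:21202337-21202443 (Defa41), chr8:21026314-21026420 (Defa21), chr8:21163046-21163152 (Defa22) and chr8:21392583-21392695 (Defa33), all on the plus strand. Defa21 and Defa22 differ by very few letters, and Defa24 and Defa30 are a similarly close pair, 98.6% identical over the coding sequence.

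How far a gene's own count can be trusted depends on this likeness. Of the 75-base stretches in the Defa24 transcript, 93.3% occurred in no other gene. The share was 85.9% for Defa26, 80% for Defa29, 79.3% for Defa30 and 68.9% for Defa41. Defa22 and Defa21 had 43.8% and 43.6% of their own and shared the rest with each other. Defa17 had 8.67% and shared 91.3% with Defa3, Defa36 had 4.91% and shared 95.1% with Defa37, and Defa33 had 0%, sharing 78.7% with Defa2. For these, the model that split the reads decides the value of a single gene, so sums over genes sharing at least 50% of such stretches are given beside them.

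The promoter table from RefSeq (GRCm38.p6) held 5 of the 10 genes, Defa21, Defa22, Defa30, Defa36 and Defa41. The 250 bases before the RefSeq start are shown for 3 of them, since their levels moved together with age but differed between regions. Capitals mark TATAAA (the TATA box) and ATCAAAG, which is CTTTGAT on the other strand, a motif of the TCF/LEF factors of Wnt signalling.
Defa21: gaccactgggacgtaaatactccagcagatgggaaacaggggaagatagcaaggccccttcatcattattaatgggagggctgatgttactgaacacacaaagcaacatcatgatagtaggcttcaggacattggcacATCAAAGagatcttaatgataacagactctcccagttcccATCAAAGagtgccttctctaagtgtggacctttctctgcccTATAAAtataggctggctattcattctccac
Defa41: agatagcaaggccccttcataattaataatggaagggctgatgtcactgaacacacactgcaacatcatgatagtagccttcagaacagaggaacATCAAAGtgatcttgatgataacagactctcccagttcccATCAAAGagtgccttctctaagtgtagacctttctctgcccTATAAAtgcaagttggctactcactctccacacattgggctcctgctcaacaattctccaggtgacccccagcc
Defa30: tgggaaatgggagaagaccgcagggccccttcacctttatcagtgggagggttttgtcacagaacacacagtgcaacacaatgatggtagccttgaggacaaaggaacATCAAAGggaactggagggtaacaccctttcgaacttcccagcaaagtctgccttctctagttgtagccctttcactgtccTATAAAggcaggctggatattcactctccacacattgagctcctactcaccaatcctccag
They lie at chr8:21025295-21025544 (Defa21), chr8:21201354-21201603 (Defa41) and chr8:21134400-21134649 (Defa30), plus strand. The Defa22 stretch was 100% identical to that of Defa21, and the Defa36 and Defa41 stretches were 97.3% identical over 222 aligned bases. Both strands were searched, and the 2 motifs do not overlap. TATAAA occurred in 5 of the 5 and CTTTGAT in 5 of the 5, against 12.4% and 3.21% of 32851 mouse promoter windows of this length. Over all 16 Defa windows in the table the counts were 15 and 13. A match of letters is a description of these windows only.

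Total counts were 16824021 to 65042327 a sample. Day 6 sample 3 was left out of both regions, which leaves 46 samples (day 6 has 2 in each region), because the library labelled duodenum was low in the duodenal gene Pdx1 and the one labelled ileum was high in it, against their labels. Among the rest, 3 libraries of the tested ages were low in the genes that mark their region. Duodenum week 2 sample 2 and duodenum week 4 sample 2 had Pdx1 at 3.99 and 1.81 CPM (counts scaled to library size by TMM, a trimmed-mean factor), against 10.2 to 20.7 in the other 7 duodenum samples of weeks 2 to 4. Ileum week 4 sample 1 had the bile acid binding protein Fabp6 at 41.7 CPM, against 1256 and 1936 in the other two, and all ileum week 4 samples had Pdx1 at 0.776 to 2.87 CPM, against 0.0965 to 0.145 at week 3. Tests of the 10 genes were also run without these 3, and calls that changed are given. For all other genes, results without these 3 are not given. Genes of smooth muscle (Acta2, Myh11 and Des summed) reached 2.97 to 29 CPM in duodenum and 8.24 to 119 CPM in ileum, low beside epithelial genes (Epcam, Vil1, Krt8 and Cdh1 summed) at 2674 to 8847 CPM, although the samples are labelled as whole wall. Acinar genes of pancreas summed to 4.6 to 605 CPM in duodenum and 2.85 to 27.6 CPM in ileum.

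At birth, 2 of the 10 genes made up nearly all of the summed level. Defa24 was at 98.1, 71.7 and 77.3 CPM in the day 0 duodenum samples and at 43.8, 70.1 and 69.6 CPM in the day 0 ileum samples. Defa17 was at 21.3, 15.9 and 12.3 CPM in duodenum and 14.2, 21 and 16.9 CPM in ileum, and together with Defa3, with which it shares most of its sequence, at 39.7 to 57.6 CPM in duodenum and 32.9 to 55.3 CPM in ileum. No other listed gene passed 0.4 CPM in any day 0 sample, and Defa21 had 0 counts in all 6 of them. The other listed genes thus added little to the sum of the 10 at birth. Defa3, which is not listed, had day 0 means of 29.8 CPM in duodenum and 29.3 CPM in ileum. Defa24 was 82.8% ± 2.4 of the summed 10 genes in duodenum and 77.3% ± 2.46 in ileum (SD, n = 3 each), and Defa17 was 16.5% ± 2.49 and 22.3% ± 2.56. Defa30, whose coding sequence is 98.6% that of Defa24, was at 0.36, 0.319 and 0.31 CPM in duodenum and 0.148, 0.251 and 0.19 CPM in ileum at birth, so the closest relative of the most abundant gene was near the floor. All of these were day 0 levels of libraries in which 3 counts correspond to a mean of 0.0915 CPM in duodenum and 0.102 CPM in ileum.

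**Figure D1:**
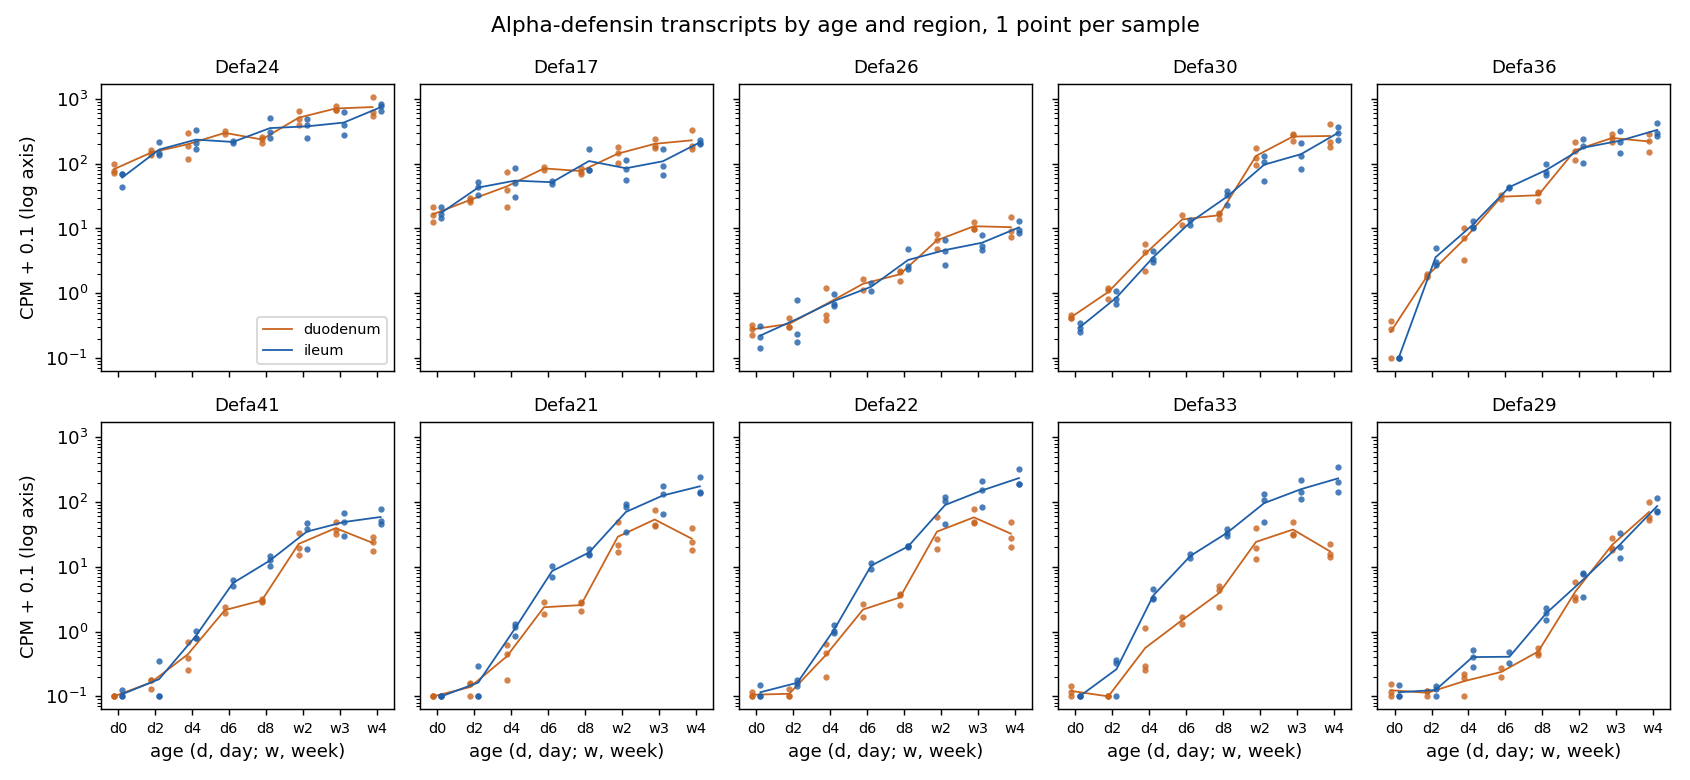
Level of each gene (vertical, CPM plus 0.1 on a log axis) by age (horizontal) in duodenum (orange) and ileum (blue), with 1 point a sample and lines through the group means. Defa24 and Defa17 start at 12.3 CPM or more at birth, the other 8 genes start under 0.4 CPM, and Defa21, Defa22 and Defa33 have higher group means in ileum from day 4.

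By week 4, levels were far above those of birth. Defa26 was the scarcest of the 10 at week 4, at 14.7, 9.12 and 7.36 CPM in duodenum and 8.33, 13.1 and 9.42 CPM in ileum. Week 4 against day 0 is the contrast behind the choice of genes and has no test. Defa24 reached 1085, 623 and 543 CPM in duodenum and 646, 827 and 766 CPM in ileum, 9.11 and 12.2 times its day 0 mean. For Defa17 the factors were 13.9 and 12.3. Defa30 went from 0.33 to 268 CPM in duodenum, 814 times, and from 0.196 to 300 CPM in ileum, 1529 times. Genes with 0 counts in every day 0 library were set against a floor of 3 counts per library. Defa36 was then at least 3250-fold higher in ileum, Defa33 at least 2268-fold and Defa21 at least 1715-fold, and in duodenum Defa21 was at least 297-fold and Defa41 at least 256-fold higher. The genes at or near 0 counts at birth had larger ratios than Defa24 and Defa17. A day 0 level near 0 makes a ratio large by itself, so these ratios do not rank the genes. Defa26 in duodenum, at 0.177 CPM at birth, had a ratio of 58.7. For Defa33 and Defa36, 0 counts at birth also depend on how shared reads were split.

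The age at which every sample of a group first held more than 3 counts ordered the genes. Defa24, Defa17 and Defa30 passed it at day 0 in both regions, Defa26 at day 0 in duodenum and day 4 in ileum, and Defa36 at day 2 in both. Defa22, Defa33 and Defa41 passed it at day 4 in both regions. Defa21 and Defa29 passed it at day 4 in ileum and day 6 in duodenum. Once passed, no gene fell back below it. Depth bears on this order, since duodenum libraries were the deeper ones. So does the split of shared reads for Defa17, Defa21, Defa22, Defa33 and Defa36. In ileum at birth, where Defa33 had 0 counts, Defa2, Defa20 and Defa32 were at 0.0475, 0.129 and 0.0262 CPM.

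Levels over the first 8 days are given with no test, for the 8 genes other than Defa24 and Defa17 together. Their sum was at 0.638, 0.729 and 0.765 CPM in duodenum at birth, 2.74 to 3.43 CPM at day 2, 6.04 to 19.6 CPM at day 4, 48.2 and 59.5 CPM at day 6 and 51.6 to 69.7 CPM at day 8. In ileum it was at 0.259, 0.292 and 0.523 CPM at birth, 3.69 to 7.38 CPM at day 2, 19.8 to 25.4 CPM at day 4, 94.9 and 97.7 CPM at day 6 and 173 to 228 CPM at day 8. Ileum thus started below duodenum and was above it from day 2 to day 8, with no overlap at any of these ages. The order at birth rests on low values and on libraries with mixed regional markers. Duodenum day 0 sample 1 had Pdx1 at 2.41 CPM, against 13 and 25 in the other day 0 duodenum samples. Ileum day 0 sample 2 had Pdx1 at 6.51 CPM, against 0.111 and 0.665 in the other day 0 ileum samples. Defa36, which makes up much of this sum, went from 3.15, 6.92 and 10.2 CPM at day 4 to 35, 36.2 and 26.3 CPM at day 8 in duodenum and from 10.5, 13 and 10.2 CPM to 100, 66.9 and 73.4 CPM in ileum. The day 4 duodenum samples were the most spread, with the sum of all 10 genes at 144, 240 and 390 CPM.

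The makeup of the pool shifted with age. The share of Defa24 in the summed 10 genes went to 48.4% ± 2.28 at week 2 and 45.2% ± 2 at week 4 in duodenum, and to 37.1% ± 3.11 and 31.7% ± 3.55 in ileum (SD, n = 3 each). Its week 4 shares did not overlap between regions, with 43% to 46.8% in duodenum and 27.7% to 34.4% in ileum. The summed 10 genes were at 120, 88.4 and 90.3 CPM in day 0 duodenum and at 2320, 1450 and 1181 CPM in week 4 duodenum. In ileum they were at 58.2, 91.4 and 87 CPM at day 0 and 1955, 2992 and 2229 CPM at week 4. At week 4 the sum was 1650 ± 595 CPM in duodenum and 2392 ± 537 CPM in ileum, and the samples of the 2 regions overlapped. No test is given for the sum.

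**Figure D2:**
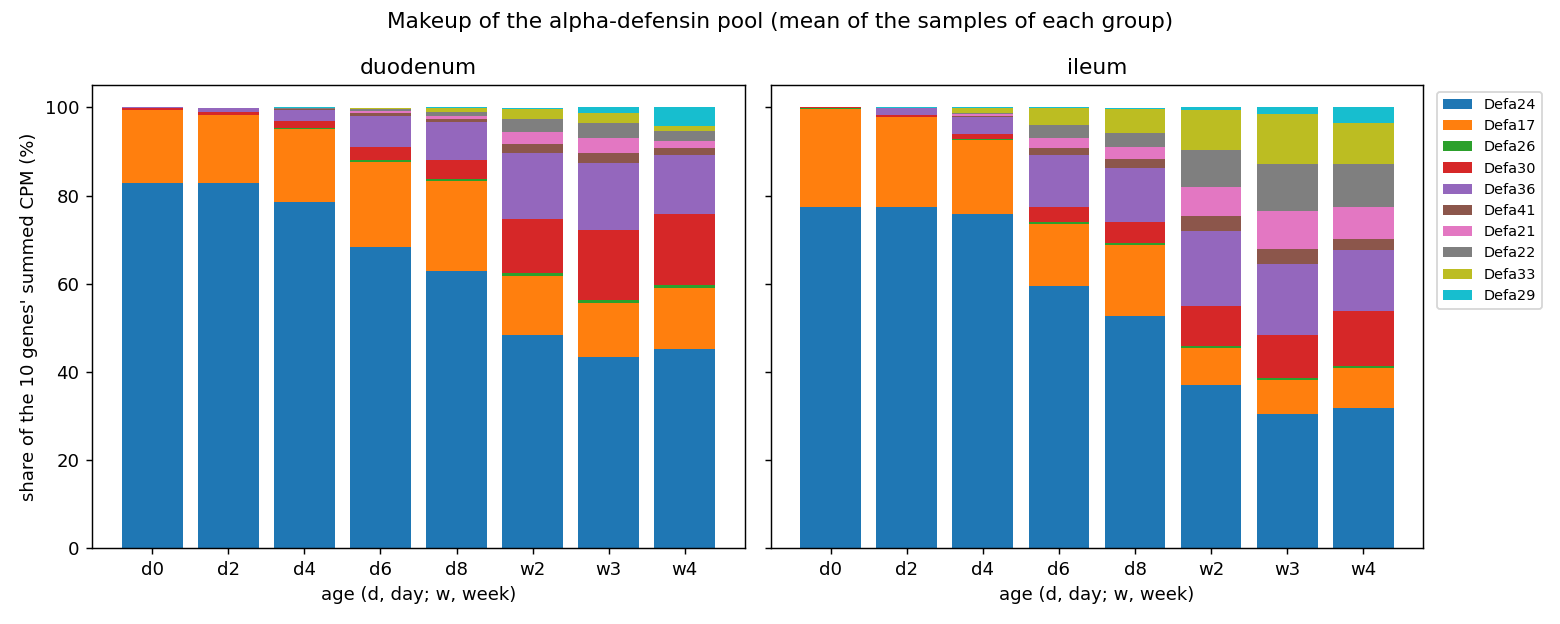
Share of each gene in the summed CPM of the 10 genes (vertical, percent, means of the samples) by age (horizontal) in duodenum (left) and ileum (right). Defa24 goes from 82.8% at birth to 45.2% at week 4 in duodenum and from 77.3% to 31.7% in ileum, where Defa21, Defa22 and Defa33 take a larger part.

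Per kilobase of transcript, which allows genes to be compared, Defa24 was the most abundant of the 10 at week 4, with 1790 ± 698 CPM per kb in duodenum and 1781 ± 221 CPM per kb in ileum. Its samples did not overlap with the next gene in either region. In duodenum Defa30 (675 CPM per kb), Defa17 (580) and Defa36 (525) followed and overlapped with one another. A gap without overlap then separated Defa36 from Defa29 (139), Defa22 (77.6), Defa21 (65.1), Defa41 (56), Defa33 (40.6) and Defa26 (28), in which each overlapped with the next. In ileum Defa36 (793 CPM per kb), Defa30 (753), Defa22 (560), Defa33 (545), Defa17 (539) and Defa21 (420) formed 1 run in which each overlapped with the next. Defa29 (171) and Defa41 (141) followed without overlap with that run, and Defa26 (27.6) lay below both without overlap. By their single-gene counts, Defa22, Defa33 and Defa21 thus stood among the abundant genes in ileum and among the scarce ones in duodenum. The places of Defa33, Defa36 and Defa17 depend on how reads were split, with 0%, 4.91% and 8.67% of their 75-base stretches to themselves. Of the genes that share with Defa33, Defa2, Defa20 and Defa32 were at 118, 85.5 and 4.56 CPM in week 4 duodenum.

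Ileum against duodenum was tested at weeks 2, 3 and 4, to ask which genes differed along the intestine. At week 4, 4 of the 10 genes were called higher in ileum and 0 lower (edgeR quasi-likelihood test, Benjamini-Hochberg adjusted p under 0.05), where 28.4% of the 21986 genes tested were called, 14.5% higher and 13.9% lower. Defa33 was at 141, 354 and 202 CPM in ileum and 15.5, 22.4 and 14 CPM in duodenum. Its log2 fold change was 3.75 ± 0.47 (SE), a 13.4-fold difference with adjusted p = 1.33e-06 by edgeR. Every ileum sample lay above every duodenum sample. Defa22 was at 193, 320 and 192 CPM in ileum and 28.1, 48.9 and 20.5 CPM in duodenum, 7.22-fold (log2 2.85 ± 0.38, adjusted p = 2.11e-06). Defa21 was at 138, 247 and 141 CPM against 24.1, 39.2 and 18.2 CPM, 6.46-fold (log2 2.69 ± 0.44, adjusted p = 5.53e-05). Both again had no overlap. Defa41 was at 45.9, 78.9 and 51.8 CPM in ileum and 29.2, 23.7 and 17.3 CPM in duodenum, a smaller 2.52-fold difference (log2 1.33 ± 0.34, adjusted p = 0.00441), and its samples did not overlap either. These 4 were the members higher in ileum without overlap at week 4, where 18.5% of genes tested were.

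The other 6 genes did not pass the test at week 4. Defa24 had a log2 difference of -0.01 ± 0.31 (adjusted p = 0.995), Defa17 of -0.11 ± 0.36, Defa26 of -0.02 ± 0.4, Defa30 of 0.16 ± 0.31, Defa29 of 0.3 ± 0.31 and Defa36 of 0.6 ± 0.34. Defa36 and Defa41 are 97.5% identical in coding sequence, and Defa41 passed while Defa36, at 271, 433 and 295 CPM in ileum and 287, 223 and 152 CPM in duodenum, did not. Whether those 2 differences differ from each other was not tested. Near-identical copies summed gave the same picture. Defa21 with Defa22 was 6.88-fold higher in ileum at week 4 (log2 2.78 ± 0.41, adjusted p = 9.93e-06), and Defa33 with Defa2, Defa20 and Defa32 was 5.31-fold higher (log2 2.41 ± 0.38, adjusted p = 2.09e-05), a smaller ratio than for Defa33 alone. Defa17 with Defa3 (log2 -0.22 ± 0.34) and Defa36 with Defa37 (log2 0.62 ± 0.32) did not pass. Without the 3 libraries low in regional markers the same 4 genes were called, at log2 4.22 for Defa33, 3.37 for Defa22, 3.18 for Defa21 and 1.47 for Defa41. Leaving out any single library kept the count at 4.

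At week 2, 3 of the 10 genes were called higher in ileum and 0 lower, where 22.4% of genes tested were called, 10.6% higher and 11.8% lower. Defa33 was at 48.5, 108 and 133 CPM in ileum and 13.1, 40 and 19.6 CPM in duodenum, 3.99-fold (adjusted p = 0.00136 by edgeR), with no overlap. Summed with Defa2, Defa20 and Defa32 the difference was smaller, 2.37-fold (adjusted p = 0.0128). Defa21 summed with Defa22 was 2.51-fold higher (0.0135), and Defa17 with Defa3 and Defa36 with Defa37 did not pass. Defa22 (2.59-fold, adjusted p = 0.00651) and Defa21 (2.42-fold, adjusted p = 0.0273) were called although their samples overlapped. Their highest duodenum sample was sample 2, one of the libraries low in Pdx1, at 58.9 CPM for Defa22 and 49 CPM for Defa21. Without the 3 such libraries the differences were larger, log2 1.96 for Defa22 and 1.86 for Defa21, with adjusted p of 0.000301 and 0.00423. Without duodenum week 2 sample 1, Defa33 alone was called, with adjusted p of 0.0522 for Defa22 and 0.133 for Defa21, and Defa21 was also lost without duodenum sample 3 (0.12), ileum sample 2 (0.0974) or ileum sample 3 (0.117).

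At week 3, 3 genes were called higher in ileum and 1 lower, where 14.2% of genes tested were called, 7.28% higher and 6.9% lower. Defa33 (4.22-fold, adjusted p = 0.00157), Defa22 (2.61-fold, 0.00999) and Defa21 (2.35-fold, 0.0453) were higher by edgeR. Summed with Defa2, Defa20 and Defa32, the difference for Defa33 was smaller, 2.23-fold (adjusted p = 0.0297). Defa21 summed with Defa22 was 2.48-fold higher (0.0217), and Defa17 with Defa3 and Defa36 with Defa37 did not pass. Defa33 was at 145, 218 and 113 CPM in ileum and 49.8, 32.2 and 30.9 CPM in duodenum. Defa30 was lower, at 132, 206 and 84.1 CPM in ileum and 290, 274 and 226 CPM in duodenum, with a log2 difference of -0.91 ± 0.31 (adjusted p = 0.0437). Its ileum samples all lay below its duodenum samples. The same held for Defa17, Defa24 and Defa26, so 4 of 10 genes were lower without overlap, where 16.1% of genes tested were. Defa24, at 400, 619 and 278 CPM in ileum and 790, 672 and 678 CPM in duodenum, did not pass (log2 -0.72 ± 0.31, adjusted p = 0.113). So at week 3 the listed genes went both ways between the regions. These calls were the least firm. Leaving out 1 library gave between 1 and 4 calls. Only Defa33 was called without duodenum week 3 sample 2 or sample 3, where adjusted p for Defa21, Defa22 and Defa30 was 0.153, 0.0575 and 0.095, or 0.154, 0.0566 and 0.0588. Defa33 and Defa22 were called without ileum sample 1 (Defa21 0.0833, Defa30 0.0999). Without ileum sample 2, Defa21 (0.197) and Defa22 (0.0789) were lost and Defa17 (0.0287) and Defa24 (0.0367) were called lower, and Defa30 was lost without duodenum sample 1 (0.122) or ileum sample 3 (0.257). Without the day 4 samples there were 6 calls, with Defa17 (0.0163) and Defa24 (0.0275) added as lower. With both day 6 samples numbered 3 added to the fit there were 0 calls, and Defa33 had an adjusted p of 0.0563.

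**Figure D3:**
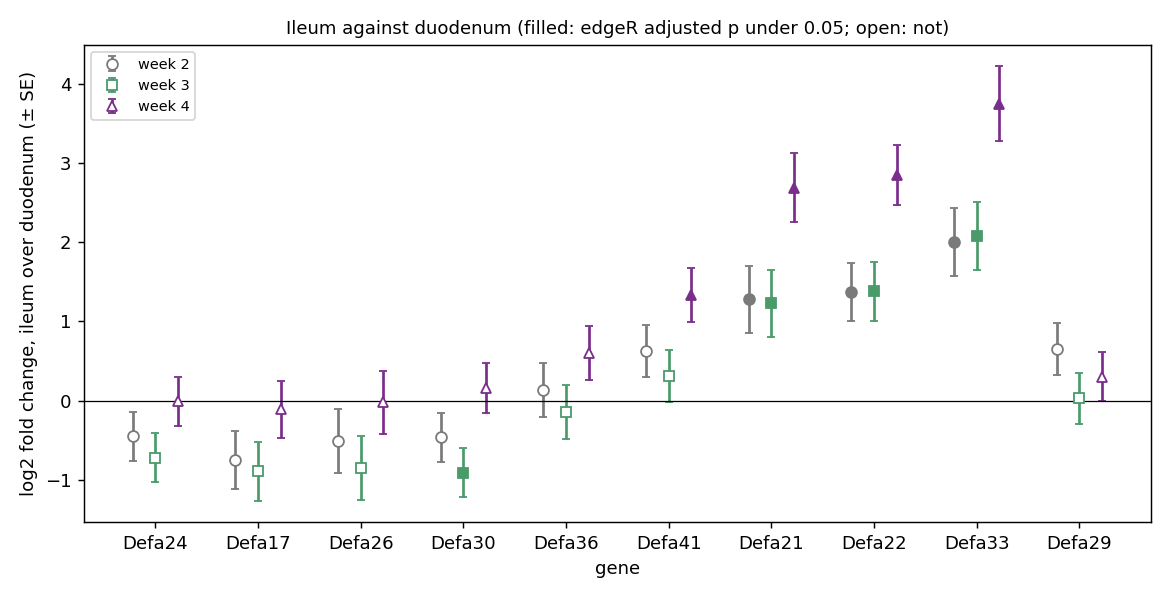
Log2 fold change of ileum over duodenum (vertical, ± SE) for each gene at week 2 (circles), week 3 (squares) and week 4 (triangles), filled where the edgeR adjusted p was under 0.05. Defa33, Defa22 and Defa21 are higher in ileum at all 3 ages and Defa41 at week 4, while Defa24 lies at -0.01 at week 4.

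Ages before week 2 were not tested between the regions. At day 8, Defa33 was at 32.8, 29.6 and 38.4 CPM in ileum and 5.01, 4.22 and 2.28 CPM in duodenum, 8.76 times. Defa21 (6.72 times), Defa22 (6.27 times) and Defa41 (4.23 times) were likewise higher in every ileum sample. So was Defa29 (4.65 times), which did not pass at weeks 2, 3 or 4, and so were Defa36 (2.47 times), Defa30 (1.95 times) and Defa26 (1.7 times), while Defa17 and Defa24 overlapped. At that age 8 of the 10 genes were higher in ileum without overlap, where 26.1% of all genes tested were. At day 4, Defa33 was at 3.04, 4.41 and 3.15 CPM in ileum against 0.154, 0.197 and 1.03 CPM in duodenum, and 5 of 10 genes were higher without overlap against 11.6% of all genes tested. At day 6, with 2 samples a region, 6 of 10 were higher and 2, Defa17 and Defa24, lower without overlap, against 36.8% and 36.1% of all genes tested. At birth 0 of 10 were higher in ileum without overlap, against 13.2% of all genes tested, and 2, Defa24 and Defa30, were lower, against 14.1%. The day 0 libraries described above as mixed in Pdx1 are included in these counts.

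Week 2 against day 8 covers the second week of life. In duodenum 9 of the 10 genes were called higher and 0 lower (edgeR adjusted p), where 15.7% of genes tested were called, 6.75% higher and 8.93% lower. Over those 10 genes the median log2 change was 2.8, against -0.04 over all genes tested. The list was chosen on its rise from day 0 to week 4, which holds this step. An excess over all genes was therefore partly built in, in both regions. Defa21 was at 2.64, 2.76 and 2.01 CPM at day 8 and 16.7, 49 and 21.6 CPM at week 2, an 11.7-fold rise (log2 3.55 ± 0.47, adjusted p = 2.46e-05). Defa22 (10.6-fold), Defa29 (10.1-fold), Defa30 (8.31-fold) and Defa41 (7.67-fold) rose comparably. Defa24 rose less, from 245, 258 and 208 CPM to 394, 654 and 494 CPM, 2.17-fold (log2 1.12 ± 0.31, adjusted p = 0.0123). Defa17, with Defa24 the main part of the summed 10 genes at birth, did not pass (log2 0.89 ± 0.37, adjusted p = 0.0985). Summed with Defa3 it did not pass either (log2 0.93 ± 0.35, adjusted p = 0.0618). The other sums were called, Defa21 with Defa22 (11.1-fold), Defa33 with Defa2, Defa20 and Defa32 (7.32-fold) and Defa36 with Defa37 (4.98-fold). All 10 genes were higher at week 2 without overlap, against 18.7% of genes tested. The call of Defa24 was lost without duodenum day 8 sample 3 (adjusted p = 0.0551), without duodenum week 2 sample 2 (0.0653) and without the 3 libraries low in regional markers (0.0615).

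In ileum 7 of the 10 genes were called higher over the same step, where 6.64% of genes tested were called and 4.17% were called higher. Defa22 went from 19.9, 21 and 20.9 CPM to 46.3, 103 and 121 CPM (4.38-fold, adjusted p = 0.0013 by edgeR), and Defa21 rose 4.24-fold (0.00467). Defa29 (3.46-fold, 0.00289), Defa30 (3.11-fold, 0.00237), Defa33 (2.87-fold, 0.0285), Defa41 (2.82-fold, 0.00828) and Defa36 (2.21-fold, 0.0375) also rose. Defa24, at 511, 247 and 307 CPM at day 8 and 253, 394 and 486 CPM at week 2, did not pass (log2 0.09 ± 0.31), nor did Defa17 (log2 -0.37 ± 0.37) or Defa26 (log2 0.54 ± 0.41). Of the sums, Defa21 with Defa22 (4.32-fold), Defa33 with Defa2, Defa20 and Defa32 (2.87-fold) and Defa36 with Defa37 (2.19-fold) were called. Defa17 with Defa3 was not (log2 -0.06 ± 0.34). Without ileum day 8 sample 1, 3 genes were called, with Defa21 (0.0691), Defa33 (0.183), Defa36 (0.119) and Defa41 (0.0628) lost. Without ileum week 2 sample 3, 4 were called, with Defa33 (0.154), Defa36 (0.212) and Defa41 (0.0661) lost. Defa33 and Defa36 were also lost without day 8 sample 2 (0.0825 and 0.114), day 8 sample 3 (0.0562 and 0.108) or week 2 sample 2 (0.0824 and 0.0994). The difference between the regions in this step was not tested.

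**Figure D4:**
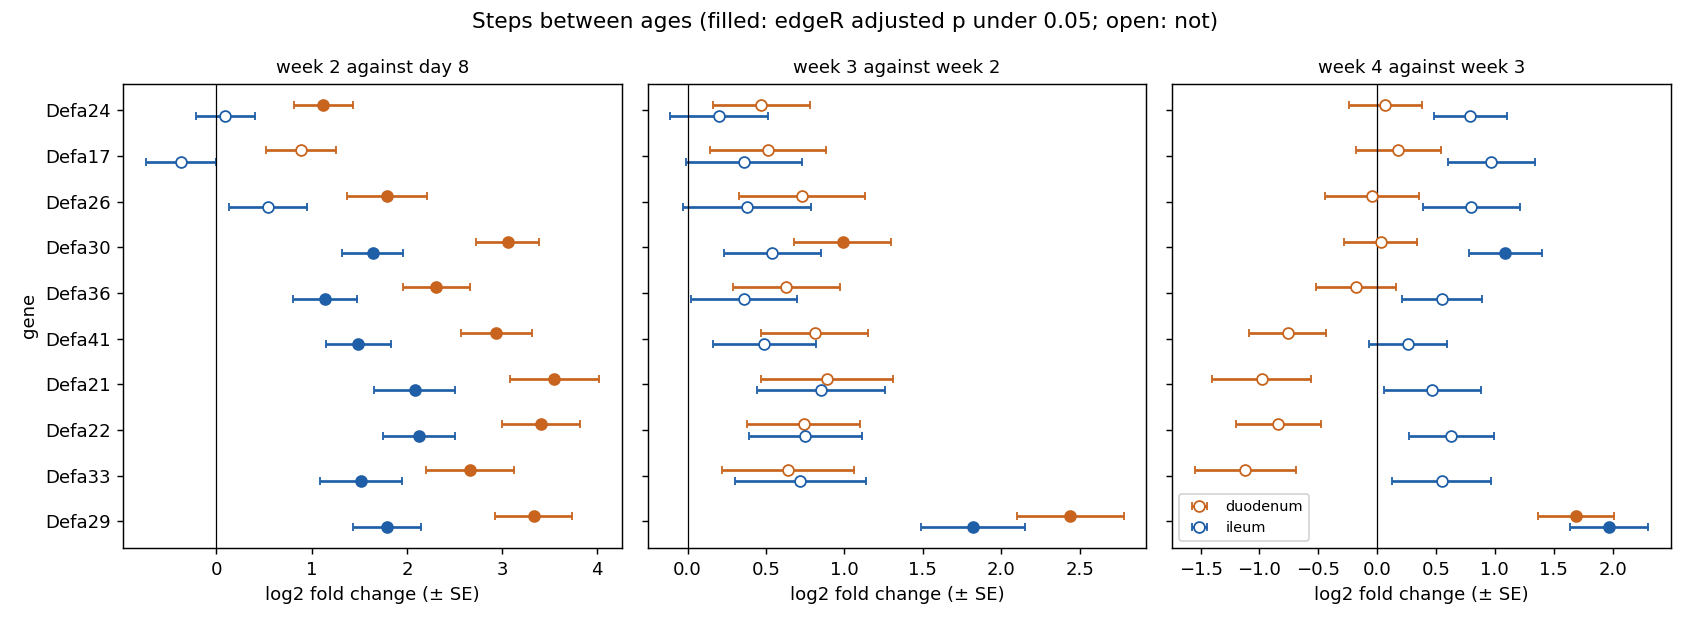
Log2 fold change (horizontal, ± SE) of each gene over the steps from day 8 to week 2, week 2 to week 3 and week 3 to week 4, in duodenum (orange) and ileum (blue), filled where the edgeR adjusted p was under 0.05. Defa29 is filled in all 6 positions, and most other genes are filled in the first step only.

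The steps across weaning were smaller for most of the family. From week 2 to week 3, 2 of the 10 genes were called higher in duodenum, Defa29 and Defa30, where 18.3% of genes tested were called and 7.7% were called higher. In ileum 1 of the 10 was, Defa29, where 26.8% of genes tested were called and 12.9% were called higher. From week 3 to week 4 the counts were 1 in duodenum, Defa29, with 12.7% of genes tested called and 7.75% called higher, and 2 in ileum, Defa29 and Defa30, with 16.1% called and 8.26% called higher. With 1 or 2 of 10 genes in each step, the members' share lay near that of all genes.

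Defa29, the member with the least similar sequence, was called higher at every one of these steps in both regions. In duodenum it was at 0.374, 0.464 and 0.342 CPM at day 8, at 2.94, 5.76 and 3.35 CPM at week 2, at 18.1, 28 and 19.2 CPM at week 3 and at 98.9, 53.7 and 58.5 CPM at week 4. No 2 neighbouring ages overlapped. In ileum it was at 2.2, 1.42 and 1.87 CPM, then 3.29, 7.93 and 7.62 CPM, then 20.4, 32.8 and 13.4 CPM and last 70.8, 116 and 73.5 CPM, again with no overlap between neighbouring ages. The week 3 step was 5.43-fold in duodenum (log2 2.44 ± 0.34, adjusted p = 7.11e-07 by edgeR) and 3.53-fold in ileum (log2 1.82 ± 0.33, adjusted p = 3.94e-05). The week 4 step was 3.24-fold in duodenum (log2 1.69 ± 0.32, adjusted p = 0.00028) and 3.91-fold in ileum (log2 1.97 ± 0.33, adjusted p = 2.4e-05). These calls held without each single library. With limma on the authors' normalized values plus 0.1 they were lost at the ileum week 2, ileum week 3 and both week 4 steps (adjusted p = 0.332, 0.169, 0.19 and 0.153).

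Defa30 rose in duodenum from week 2 to week 3, from 96.7, 178 and 122 CPM to 290, 274 and 226 CPM (1.99-fold, adjusted p = 0.0197 by edgeR). In ileum this step did not pass (1.46-fold, adjusted p = 0.202), and Defa30 rose from week 3 to week 4, from 132, 206 and 84.1 CPM to 231, 372 and 296 CPM (2.13-fold, adjusted p = 0.0115). The difference of its steps between the regions did not pass at week 3 (log2 -0.45, adjusted p = 0.884) or week 4 (log2 1.06, adjusted p = 0.241). The duodenum call was lost without week 2 sample 1 (0.122), week 2 sample 3 (0.0744), week 3 sample 1 (0.0667) or week 3 sample 2 (0.0586), and the ileum call without week 3 sample 1 (0.0553), week 3 sample 3 (0.0699) or week 4 sample 2 (0.0672). The count of called genes also moved with single libraries. It was 5 in the duodenum week 3 step without week 2 sample 2, the library low in Pdx1, with Defa21 (0.0213), Defa22 (0.013) and Defa41 (0.0261) added, and also 5 without the 3 libraries low in regional markers. It was 3 in the ileum week 3 step without week 3 sample 3, with Defa21 (0.047) and Defa22 (0.0385) added. In the ileum week 4 step it was 4 without week 3 sample 2, with Defa17 (0.0158) and Defa24 (0.0212) added.

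The 4 genes with the ileal excess at week 4 had lower values at week 4 than at week 3 in duodenum, though 0 of the 10 genes passed as lower, where 4.96% of genes tested were called lower. The same duodenum week 4 samples helped to pick these 4 genes, so lower values there are partly built in. Defa33 went from 49.8, 32.2 and 30.9 CPM to 15.5, 22.4 and 14 CPM (log2 -1.12 ± 0.43, adjusted p = 0.0817 by edgeR). Summed with Defa2, Defa20 and Defa32 the change was log2 -0.73 ± 0.36 (adjusted p = 0.191). Defa21 (log2 -0.98 ± 0.42, 0.12), Defa22 (log2 -0.84 ± 0.36, 0.126) and Defa41 (log2 -0.76 ± 0.33, 0.136) were similar. Defa21, Defa33 and Defa41 had no overlap between the ages, 3 of 10 genes where 16.5% of genes tested were lower without overlap. Without duodenum week 4 sample 2 or with the 3 libraries low in regional markers left out, Defa22 was called lower (adjusted p = 0.0474 and 0.023). In ileum the same genes had positive values, log2 0.55 ± 0.42 for Defa33, 0.47 ± 0.41 for Defa21, 0.63 ± 0.36 for Defa22 and 0.26 ± 0.33 for Defa41, and none passed.

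Whether the steps differed between regions was tested as an interaction. From week 2 to week 3, 0 of the 10 genes were called, where 1.38% of genes tested were, and DESeq2 called 0. From week 3 to week 4, 0 were called by edgeR, where 1.18% of genes tested were, and DESeq2 also called 0. Defa22 had the lowest unadjusted p of the members in that step, which was larger in ileum by log2 1.47 ± 0.51 (edgeR unadjusted p = 0.00682, adjusted p = 0.153). Next came Defa33 (log2 1.67 ± 0.6, adjusted p = 0.17), Defa21 (1.46 ± 0.59, 0.239), Defa30 (1.06 ± 0.43, 0.241) and Defa41 (1.02 ± 0.47, 0.323). Summed, Defa21 with Defa22 had log2 1.47 ± 0.55 (edgeR adjusted p = 0.191). Defa33 with Defa2, Defa20 and Defa32 had log2 1.25 ± 0.51 (0.245), a smaller value than for Defa33 alone. When samples of one age and number in both regions were joined by a replicate block, 2 were called, Defa22 (adjusted p = 0.0386) and Defa21 (0.0497). Without the 3 libraries low in regional markers 2 were called, Defa22 (log2 2, adjusted p = 0.0174) and Defa33 (log2 2.15, 0.042).

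The remaining 35 Defa symbols included 17 named as pseudogenes. Of the 35, 7 had 0 counts in every sample, 18 had fewer counts in all than Defa26, the lowest of the 10, and 10 had more. Those 10 were Defa3, Defa23, Defa2, Defa20, Defa43, Defa39, Defa32, Defa5, Defa34 and Defa38. At week 4 their means ran from 4.56 CPM (Defa32) to 488 CPM (Defa23) in duodenum and from 55.1 CPM (Defa38) to 397 CPM (Defa23) and 400 CPM (Defa2) in ileum. Defa3, which shares 87.8% of its stretches with Defa17, was at 29.8 CPM in duodenum and 29.3 CPM in ileum at birth, and the other 9 were at or under 0.319 CPM. Defa32 showed the widest regional ratio among them, at 4.56 CPM in duodenum and 189 CPM in ileum at week 4. It has 0% of its 75-base stretches to itself and shares 78.6% with Defa20, so this ratio depends on how reads were split. Summed with Defa2, Defa20 and Defa33, the difference was 5.31-fold. Defa39 went the other way, at 197 CPM in duodenum and 90.1 CPM in ileum. The listed 10 genes made up 49% ± 1.31 of all Defa counts in duodenum and 50.6% ± 2.03 in ileum at week 4, down from 76.2% ± 0.554 and 72.5% ± 3.81 at birth (SD, n = 3 each).

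Beta-defensins, a separate family made by many epithelia, were near the floor. Their 43 symbols summed to 0.139 to 1.62 CPM in duodenum and 0.117 to 5 CPM in ileum, and 3 of them had enough counts to be tested. At week 4, 1 of those 3 was called higher in ileum.

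The transcripts most like the alpha-defensins over the 46 samples were led by genes listed here for the Paneth cell granule. Among 14462 genes with a mean of at least 1 CPM, the Pearson correlation of log2(CPM + 1) with the summed 10 genes was highest for Lyz1 (lysozyme, r = 0.983), followed by Itln1 (an intelectin, a sugar-binding lectin, 0.954), Pla2g2a (a secreted phospholipase, 0.917), Sh3rf2 (0.911), Prxl2b (0.894), Bhlha15 (a transcription factor of secretory cells, 0.884), Sema5a (0.882), Slc9a2 (a sodium-proton exchanger, 0.88), Cyp3a25 (0.879) and Hpse (heparanase, 0.877). All points share the common course with age, so these values describe that course. Within the 18 samples of weeks 2 to 4 alone, Lyz1 was again first (r = 0.863) and was the only one of the 10 to stay among the first 10. The 10 alpha-defensins correlated with one another at r of 0.78 to 0.999 over the 45 pairs, lowest for Defa17 with Defa33 and highest for Defa21 with Defa22, which share most of their sequence.

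The other genes of the granule did not all follow the defensins in time. In duodenum Lyz1 went from 480, 678 and 475 CPM at week 3 to 1335, 812 and 843 CPM a week later, which did not pass (1.83-fold, adjusted p = 0.131 by edgeR). In ileum it went from 317, 506 and 251 CPM to 870, 1491 and 709 CPM, which passed (2.86-fold, adjusted p = 0.00501 by edgeR). Mmp7, the processing protease, was present at birth, at 5.88, 4.28 and 3.83 CPM in duodenum and 8.43, 7.35 and 6.44 CPM in ileum. It rose at week 4, from 19, 23.5 and 17.9 CPM to 52.1, 64.4 and 45 CPM in duodenum (2.68-fold, adjusted p = 0.00121) and from 23.5, 26.8 and 18.4 CPM to 81, 181 and 80.2 CPM in ileum (4.99-fold, adjusted p = 8.72e-07). Ang4, an antimicrobial angiogenin, rose 4.76-fold and 6.63-fold over the same step (adjusted p = 3.45e-05 and 1.44e-06), and Itln1 rose 2.54-fold and 4.59-fold (0.0251 and 0.000243). Mptx2, a mucosal pentraxin, was at 0.314 to 0.693 CPM in duodenum at week 3 and 125 to 145 CPM at week 4 (246-fold, adjusted p = 1.36e-11), and rose 69.9-fold in ileum (4.93e-10). Its relative Mptx1 ran the other way, from 42.8, 46.9 and 57.4 CPM in duodenum at birth to 2.27, 2.39 and 1.59 CPM at week 4, and fell over the week 4 step in both regions (2.19-fold and 2.67-fold lower). Pla2g2a had 0 counts at birth and was at 10 to 14.2 CPM in duodenum and 19.6 to 42.4 CPM in ileum at week 4. Of this list of 7 genes, 4 rose and 1 fell in duodenum, and 5 rose and 1 fell in ileum, at week 4 against week 3, where 1 and 2 of the 10 alpha-defensins rose. The median log2 change of the list was 1.35 and 2.2, that of the alpha-defensins -0.11 and 0.71, and that of all genes tested -0.04 and 0. Lists of other cells moved over the same step. The T and B cell genes Cd3e and Cd79a rose in both regions, with a median log2 change of 4.11 in duodenum and 4.14 in ileum. Of 4 epithelial genes 3 rose in duodenum and 0 passed in ileum, and of 5 goblet cell genes 1 and 2 rose. Their part in the rise of the granule genes was not tested. Results of these lists without the libraries low in regional markers are not given.

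**Figure D5:**
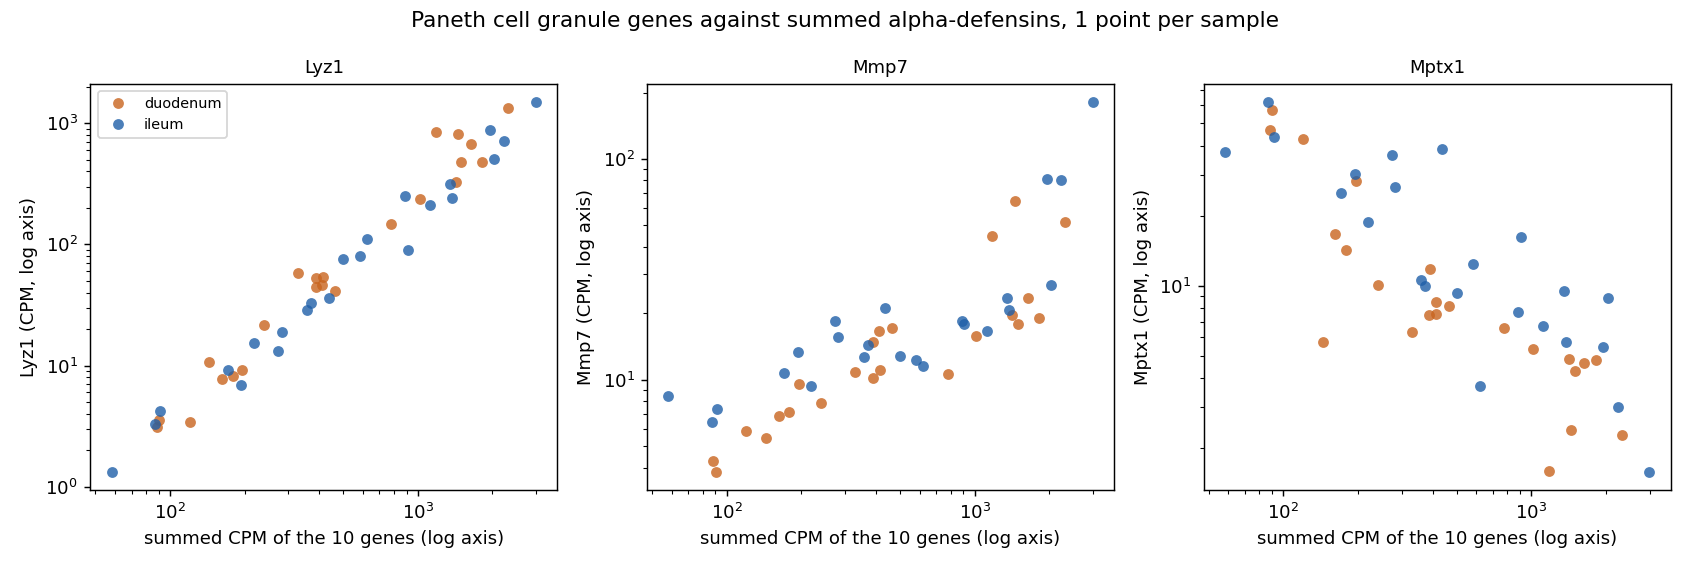
Level of Lyz1, Mmp7 and Mptx1 (vertical, CPM on a log axis) against the summed CPM of the 10 alpha-defensin genes (horizontal, log axis), with 1 point for each of 46 samples, duodenum in orange and ileum in blue. Lyz1 tracks the sum (r = 0.983), Mmp7 does so less closely (r = 0.829), and Mptx1 runs the opposite way (r = -0.826). Age is not marked.

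Between regions at week 4, Mmp7 (2.12-fold, adjusted p = 0.0082 by edgeR) and Pla2g2a (2.18-fold, 0.0137) were higher in ileum, 2 of the 7 granule genes, and the other 5, Lyz1 included, did not pass. Among 13 genes of Paneth cell specification and upkeep, 5 were higher in ileum at week 4 and 0 lower, where 14.5% and 13.9% of genes tested were. They were Atoh1, the factor that sets the secretory lineage (2.13-fold, adjusted p = 4.33e-05), Spdef (1.87-fold, 0.00123), Wnt3, a niche ligand made by Paneth cells (1.76-fold, 0.0144), Gfi1 (1.62-fold, 0.0362) and Tcf7l2, a Wnt effector (1.38-fold, 0.0215). Atoh1, Spdef and Gfi1 also serve goblet cells, and all 5 goblet cell genes were higher in ileum at that age, among them Muc2 (4.75-fold, adjusted p = 1.29e-06) and Clca1 (4.01-fold, 2e-06). Of 4 stem cell genes, 3 were lower, such as Ascl2 (3.26-fold lower, 0.00058), and of 4 epithelial genes 0 passed. Smooth muscle genes were higher in ileum for 2 of 3. The part of these differences in the ileal excess of Defa21, Defa22, Defa33 and Defa41 was not tested. Values of these lists rest on all week 4 samples, those low in regional markers included. In the same samples Defa24, Defa26, Defa30 and Lyz1 did not pass between the regions.

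From week 3 to week 4, where 7.75% of genes tested were called higher in duodenum and 8.26% in ileum, the specification list of 13 genes held 1 call in duodenum, Tcf7l2 (1.87-fold higher, adjusted p = 4.35e-05 by edgeR), and 4 in ileum, all higher, Tcf7l2 (1.8-fold), Gfi1 (1.82-fold), Nod2, a sensor of bacterial wall fragments (2.43-fold), and Cd24a (2.09-fold). From week 2 to week 3 it held 2 higher and 3 lower in duodenum and 6 higher and 3 lower in ileum, where 18.3% and 26.8% of genes tested were called in either direction. The median log2 change of the list was 0.19 in duodenum and 0.49 in ileum. Sox9, a factor needed for Paneth cells that also marks crypt progenitors, was among the genes that fell in both (adjusted p = 0.00566 and 0.000531). Apart from Defa29 and, in duodenum, Defa30, the alpha-defensins did not pass over this step.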

How the data were processed

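Whole-wall RNA of duodenum and ileum was sequenced, per the labels' protocols. The authors' deposited table holds estimated counts per gene, made with STAR 2.6.1d and Salmon 0.14.2 on mm10, per the submitters' processing notes; the annotation release is not given in the sources used here. The authors also deposited a normalized signal for each region, which equalled the estimated count divided by a median-of-ratios size factor (DESeq2 1.30.1 is named in the submitters' processing notes) and has no day 4 columns. The deposited estimated counts were whole numbers, so rounding changed none. Reads of near-identical genes are split by Salmon's model, and a single gene's value depends on that split.

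The 10 genes and the gene lists were chosen with earlier results of these data known. Counts of 46 samples were fitted in edgeR 4.0.16 (R 4.3.3) with 1 mean for each region and age, filterByExpr, TMM scaling and robust quasi-likelihood tests, adjusted by Benjamini-Hochberg over 21986 genes and called under 0.05. CPM are edgeR's, TMM-scaled. DESeq2 1.42.0, limma 3.58.1 (log2 of the normalized signal plus 1 or 0.1), RLE scaling, other filters and sample sets, a replicate block and each sample left out were alternatives. Samples without the day 4 or the 3 libraries low in regional markers, summed near-identical genes and a sum without Defa17 and Defa24 were added after seeing the data. Named genes were all 10 members, any other Defa symbol with more counts than the lowest member, all granule genes, 2 to 4 examples of the other lists and the 10 genes most correlated with the sum. Day 6 samples numbered 3 were left out. Shared sequence was counted as 75-base stretches in GENCODE M21 transcripts, and 50% shared joined genes into a class.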

Additional observations from a re-analysis of the deposited data

Results flagged for a closer look

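The 2 libraries left out of the comparisons, numbered 3 at day 6, held alpha-defensin counts far above the level that 3 counts give (0.0979 and 0.124 CPM, here on plain library totals). The summed 10 genes were at 339 CPM in the library labelled duodenum and 302 CPM in the one labelled ileum, against 442 and 451 in the other 2 day 6 duodenum samples and 448 and 409 in the other 2 day 6 ileum samples. Pdx1 was at 0.13 CPM in the library labelled duodenum and 14.1 in the one labelled ileum. Defa33 was at 9.88 CPM in the library labelled duodenum, against 1.32 and 1.55 in the other 2 samples with that label, and at 0.535 in the library labelled ileum, against 18.7 and 15.6.

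From day 6 to day 8, every Defa24 value in duodenum was lower, from 283 and 316 CPM to 245, 258 and 208 CPM, while every value in ileum was higher, from 222 and 212 CPM to 511, 247 and 307 CPM. The log2 ratio of means was larger in ileum by 1.05. With 2 samples a group at day 6, the difference was not tested.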

How the results depend on the processing

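Of 1890 values of the 10 genes under alternatives, 1772 stayed on their side of the threshold, 72 lost a call and 46 gained one. The sign changed in 82 values that were called in neither fit, of genes whose reported log2 difference was at most 0.37 in size, and in 0 called values. The 4 calls between regions at week 4 stayed at 4 in every alternative run, and duodenum week 2 against day 8 kept 8 to 10 calls. Between regions at week 2, the 3 calls became 1 with all 48 samples and 1 with only the groups compared, and 1 to 3 with single samples left out. At week 3 the 4 calls became 2 with no low-count filter and 0 with all 48 samples, 6 without the day 4 samples, and 1 to 4 with single samples left out. Ileum week 2 against day 8 went from 7 to 4 with all 48 samples and 2 with limma plus 0.1 (3 to 7 with single samples left out). Duodenum week 3 against week 2 went from 2 to 1 with no filter and to 5 with only the groups compared or without the 3 libraries low in regional markers (1 to 5 with single samples left out). Ileum week 3 against week 2 went from 1 to 0 with limma plus 0.1 (1 to 3). Duodenum week 4 against week 3 went from 1 to 2 with a mean count of at least 10, without the day 4 samples, without the 3 libraries or with limma plus 1, to 3 with only the groups compared and to 0 with limma plus 0.1 (1 to 2); the added calls were lower values of Defa22, Defa33 or Defa41. Ileum week 4 against week 3 went from 2 to 4 with a mean count of at least 10, DESeq2 or no day 4 samples and to 1 with only the groups compared (1 to 4). The week 4 step between regions went from 0 to 2 without the 3 libraries. The cause of these shifts was not tested.

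With sample number as a replicate block, duodenum week 4 against week 3 had 2 calls in place of 1, and the week 4 step between regions had 2 in place of 0. Between regions at week 3, Defa17 was added as lower (adjusted p = 0.0221, 5 calls), and in ileum week 2 against day 8 Defa36 was lost (0.0539, 6 calls). Same-numbered duodenum and ileum samples of one age had a mean correlation of deviations of 0.152 over 23 pairs, from -0.305 to 0.674, with 16 over 0.1, against -0.0782 over 44 pairs with different numbers, 9 of them over 0.1. As not every same-numbered pair was over 0.1, the block was kept as an alternative, and whether the numbers pair the samples is not settled.

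RLE and DESeq2 scaling moved the median of all genes by at most 0.049 (log2). Precision is limited by 3 samples a group, by 16824021 to 65042327 counts a sample and, for Defa17, Defa21, Defa22, Defa33 and Defa36, by shared sequence.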
